A study of Mus musculus with 2 samples.

Results

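Nuclei labelled L6 IT were neuronal nuclei that the deposited annotation, made by projecting each neuron onto a reference atlas of mouse cortex, assigned to the layer 6 intratelencephalic subclass. There were 188 of them among 2580 neuronal nuclei and 8171 annotated nuclei of all types, and the male library gave 87 and the female one 101. Both libraries came from adult mice over 7 weeks old that were heterozygous for Atf3-CreER, a knock-in that places tamoxifen-dependent Cre recombinase under the Atf3 locus, and for Sun1-sfGFP, a reporter that marks the nuclear envelope after recombination. All animals received a mild traumatic brain injury (mTBI) and tamoxifen 4 and 5 days post injury (dpi), and the injured cortex was collected at 7 dpi. Each library was 1 pool of 4 animals of 1 sex, from which nuclei positive for GFP and a DNA dye were sorted and sequenced as 3′ single-nucleus RNA libraries. Both libraries belong to the same group, and neurons of uninjured mice were not analysed here, so the comparisons below are between kinds of nuclei and not between injured and uninjured tissue. The Cre driver reports cells that had Atf3 expression near the time of tamoxifen, and sex, library and depth cannot be told apart. Where values are given in pairs, the male library comes first.

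Intratelencephalic neurons send their axons to other parts of the cortex and to the striatum, and those of layer 6 lie among corticothalamic neurons of the same layer. After axonal damage neurons switch on stress factors of the bZIP family, among them Atf3 and Jun, together with genes of regrowth. The integrated stress response, which slows translation when proteins misfold or amino acids run short, ends in Ddit3 (CHOP), a transcription factor that can promote cell death. Ecel1 encodes a membrane metalloprotease that neurons induce after nerve injury, and Sprr1a encodes a small proline-rich protein of regrowing axons.

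Labelled nuclei were shallow. Their unique molecular identifiers (UMIs, 1 for each captured RNA molecule) had a median per nucleus of 1800 and 2708 (other neurons, 3762 and 9048), and their sums were 199197 and 410546 UMIs. A gene with no UMI in these sums therefore lay under 15.1 and 7.31 CPM (UMIs of a gene per 1000000 UMIs of the sum), the worth of 3 UMIs. The share of neurons that carried the label was 6.31% in the male library (95% exact binomial interval 5.09 to 7.73) and 8.40% in the female library (6.90 to 10.1). Among neurons under 1000 UMIs the share was 20.6% and 29.2%, from 1000 to 2000 UMIs 15.9% and 40.4%, and among those with 8000 or more 0.588% and 2.05%. When the same kind of projection was run on all nuclei, L6 IT was given to 846 nuclei with a median of 867 UMIs, and 148 of the 188 kept it. Intervals on shares of nuclei cover counting error only.

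The label was spread over 10 of the clusters that the study made from expression alone. Clusters are given by their deposited numbers. Cluster 17 held 40 labelled nuclei, 20 in each library, and was the cluster in which L6 IT was the most frequent label (32% of its 125 neurons). Cluster 20, led by L2/3 IT nuclei, held 32, of which 26 were female. Cluster 8, led by parvalbumin (Pvalb) interneurons, held 27. Clusters 4 and 14 held 19 each, and cluster 3, led by L2/3 IT nuclei, held 18. The most frequent deposited label of clusters 4 and 14 was L5 extratelencephalic (L5 ET). In cluster 14 that lead exists only because the deposited annotation splits the L2/3 IT label. This cluster held 49 L5 ET nuclei and 54 L2/3 IT nuclei. These 6 clusters took in 155 of the 188, and the remaining nuclei lay in clusters 6, 12, 19 and 24. Depth differed between clusters: labelled nuclei of cluster 17 had a median of 4063.5 and 9209.5 UMIs, close to the other neurons of that cluster (4481 and 11089), whereas those of cluster 20 had 919.5 and 870.5.

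**Figure D1:**
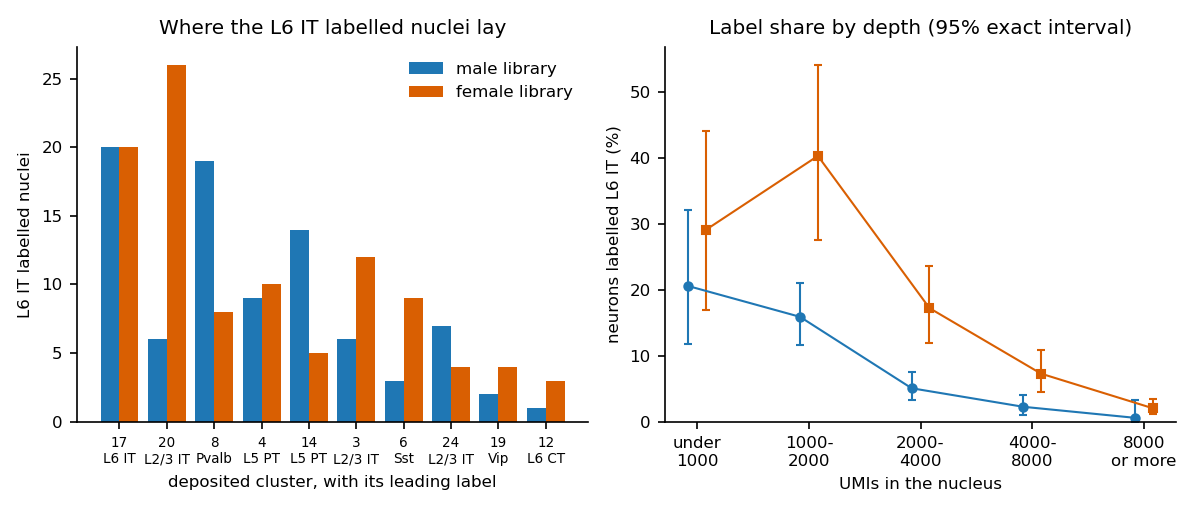
Left, number of nuclei labelled L6 IT (y axis) in each deposited cluster (x axis, with its leading label; L5 PT is the deposited name of L5 ET), side by side for each library. Right, percent of neurons with the label (y axis) by UMIs per nucleus (x axis), with 95% exact binomial intervals: cluster 17 holds 40 of the 188, and the share in the female library is 29.2% under 1000 UMIs, 40.4% from 1000 to 2000 and 2.05% at 8000 or more.

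The markers fixed for L6 IT neurons did not set the labelled nuclei apart. The 8 genes summed to 929 and 838 CPM, below the other neurons (1196 and 1078) and below Pvalb nuclei (2335 and 2363). Oprk1 and Car3 had no UMI in labelled nuclei of either library, and Osr1 had 1 in the female library. Zfp804b, with 758 and 638 CPM, carried most of the sum, and in cluster 17 it lay below the other neurons of the cluster (275 and 469 against 1376 and 1320 CPM). Pan-excitatory markers summed to 492 and 395 CPM, against 708 and 537 in the 5 other excitatory subclasses. The label is therefore used below as the name of the deposited assignment and not as an established cell type.

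Markers of other cells were present in the labelled nuclei and differed by cluster. Interneuron markers summed to 346 and 149 CPM against 36.0 and 37.8 in the other excitatory subclasses, and to 1203 and 970 CPM in the labelled nuclei of cluster 8, where other neurons had 1837 and 1246. Astrocyte markers summed to 65.3 and 36.5 CPM overall and to 1022 and 258 in cluster 20, and endothelial markers to 1022 and 143 in cluster 20. Microglia markers summed to 919 and 1644 CPM, against 514 and 901 in other neurons, 8295 and 7920 in microglia and 2599 and 2891 in barcodes of at most 100 UMIs, which hold free RNA. Of 6 microglia markers tested against the other excitatory subclasses, 0 were called by edgeR's quasi-likelihood test or DESeq2, with 2 at an unadjusted p under 0.05 and 2 called with the library as a block. The share of free RNA estimated from these microglia genes was 35.4% for male labelled nuclei and stood at the upper limit set, 50%, for female ones, while the L2/3 IT nuclei had 21.6% and 35.8%. The estimate takes every microglia UMI of a sum as free RNA. The gene Fam19a1 had 1545 and 1392 CPM in the free-RNA barcodes but 502 and 448 in labelled nuclei. That is less than these shares alone would give. The same held for Slc17a7, at 166 and 80.5 CPM in those barcodes but 40.2 and 19.5 in labelled nuclei (8 and 8 UMIs). A share applies to every gene of a sum. If free RNA has the make-up of those barcodes, the shares of labelled nuclei are therefore too high, and not for Fam19a1 alone. The repeats that subtract free RNA use these shares and so can take away too much. Transcripts of the reporter GFP were at 35.1 and 31.7 CPM in labelled nuclei and at 4.90 and 9.92 in other neurons. The part of these levels in the comparisons below was not tested, except by the repeats that leave out clusters or subtract free RNA.

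**Figure D2:**
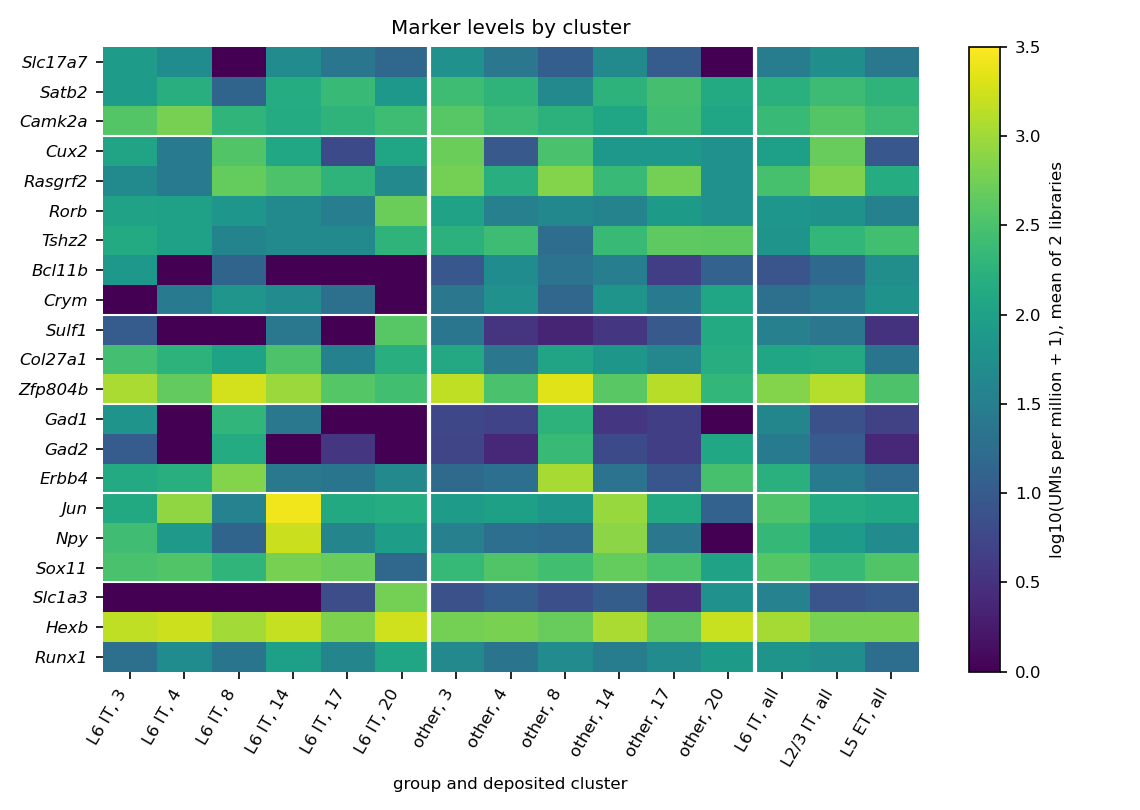
Heat map of log10(CPM + 1), mean of the 2 libraries, for 21 marker and stress genes (rows) in nuclei labelled L6 IT and in the other neurons of each cluster, and in L6 IT, L2/3 IT and L5 ET nuclei overall (columns). Gad1, Gad2 and Erbb4 are high in both kinds of nuclei of cluster 8.

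Ddit3, Sprr1a and Ecel1 were the injury genes named for these nuclei, and the windows around their start sites are shown because the first 2 hold the AP-1 element to which Jun and its partners bind. The sequences are RefSeq promoters on GRCm38.p6, 250 bases before to 50 after the start site, 5′ to 3′ on the strand of the gene, with each TGAGTCA or its other-strand form TGACTCA in capitals. Ddit3 lies on the plus strand at chr10:127290543-127290842, Sprr1a on the minus strand at chr3:92485832-92486131 and Ecel1 on the minus strand at chr1:87156307-87156606.
Ddit3: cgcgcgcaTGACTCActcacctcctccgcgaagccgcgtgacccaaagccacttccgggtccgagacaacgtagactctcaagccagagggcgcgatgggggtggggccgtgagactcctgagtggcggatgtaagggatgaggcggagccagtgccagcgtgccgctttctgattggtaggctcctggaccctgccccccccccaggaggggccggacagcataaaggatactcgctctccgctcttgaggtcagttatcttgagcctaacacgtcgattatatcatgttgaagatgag
Sprr1a: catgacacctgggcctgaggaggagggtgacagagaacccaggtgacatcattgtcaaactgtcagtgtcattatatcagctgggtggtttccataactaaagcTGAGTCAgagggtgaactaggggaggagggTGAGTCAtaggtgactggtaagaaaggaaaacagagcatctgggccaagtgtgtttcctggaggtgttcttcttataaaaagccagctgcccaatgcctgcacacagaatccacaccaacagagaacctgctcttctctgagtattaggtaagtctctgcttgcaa
Ecel1: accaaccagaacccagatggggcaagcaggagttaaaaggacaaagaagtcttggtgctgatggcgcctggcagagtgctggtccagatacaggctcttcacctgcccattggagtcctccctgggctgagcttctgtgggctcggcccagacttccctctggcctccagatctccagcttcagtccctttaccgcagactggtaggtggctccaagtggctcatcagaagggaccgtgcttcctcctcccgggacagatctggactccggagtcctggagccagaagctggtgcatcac
Ddit3 held 1 match, 242 bases before the start, and Sprr1a held 2, at 146 and 116 bases before it. Ecel1 held no match in these letters. The element was found on either strand in 5.202% of 32851 promoters of the same length, and the cyclic AMP element TGACGTCA, found in 1.79%, was absent from all 3 windows. A match is a match of letters and was not tested as a binding site.

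Sprr1a (ENSMUSG00000050359; GRCm38 chr3, 92483952 to 92485895, minus strand) was highest in the labelled nuclei of all 10 neuronal subclasses in both libraries. It was measured at 120 and 134 CPM (24 and 55 UMIs). L5 ET nuclei came next in the male library with 117 CPM and had 74.0 CPM in the female library, L5 IT nuclei had 38.6 and 76.5 and L2/3 IT nuclei 35.2 and 45.1. Microglia had 7.2 and 6.8 CPM and the free-RNA barcodes 89.0 and 91.3. Against the mean of the 5 other excitatory subclasses, each weighted equally, Sprr1a rose by 1.80 on the log2 scale (SE 0.28, adjusted p = 0.00026), in both libraries, and it remained called in the 18 alternatives that gave a test. The labelled nuclei of cluster 17 supplied 18 of the 24 male and 31 of the 55 female UMIs; without them the difference was 1.25 (adjusted p = 0.045) and with them alone 2.28.

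Ddit3 (ENSMUSG00000025408; chr10, 127290774 to 127296288, plus strand) was measured at 356 and 151 CPM (254 ± 145, SD, n = 2). Among the 10 subclasses it ranked 1 and 3, in the female library behind L5 IT (142 and 244 CPM) and L5 ET nuclei (270 and 154). L2/3 IT nuclei had 104 and 74.8 CPM, Pvalb nuclei 123 and 49.6, microglia 53.3 and 33.1, and the free-RNA barcodes 201 and 124. These male and female values lay further apart than those of Sprr1a, Ecel1 and Atf3 in the labelled nuclei. Ddit3 was 1.02 higher than in the other excitatory subclasses on the log2 scale (SE 0.31, adjusted p = 0.048), a call made in 8 of 19 alternatives. Of the 71 male UMIs, 36 came from the 14 labelled nuclei of cluster 14 and 17 of those from 1 nucleus, whereas 38 of the 62 female UMIs came from cluster 17. Without cluster 14 the difference was 0.51 (adjusted p = 0.44).

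Ecel1 (ENSMUSG00000026247; chr1, 87147655 to 87156521, minus strand) was measured at 341 and 465 CPM (68 and 191 UMIs), the highest of the 10 subclasses in each. The margin was small, since L5 ET nuclei had 330 and 419 CPM, L2/3 IT nuclei 287 and 401, Sst interneurons 261 and 393 and Pvalb nuclei 252 and 398, with 40.1 and 21.4 in microglia. The difference from the other excitatory subclasses, 0.65 on the log2 scale (SE 0.30), did not pass the test (adjusted p = 0.24) and did so with the library as a block (adjusted p = 0.0094).

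Atf3 (ENSMUSG00000026628; chr1, 191170296 to 191218039, minus strand), whose locus drives the Cre, was measured at 171 CPM in each library. It ranked 3 and 4 of 10, behind Pvalb (319 and 460 CPM) and Vip (187 and 206 CPM) interneurons in both and behind Sst nuclei (158 and 186 CPM) in the female library. L5 ET nuclei had 65.5 and 98.9 CPM, L2/3 IT nuclei 60.7 and 81.3 and microglia 26.5 and 35.9. Atf3 was 1.30 higher on the log2 scale than in the other excitatory subclasses (SE 0.34, adjusted p = 0.019). That call was lost without the labelled nuclei of clusters led by interneurons (0.89, adjusted p = 0.19), and the labelled nuclei of cluster 17 alone gave 0.49 (adjusted p = 0.71).

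Against single subclasses the picture was narrower. Against L2/3 IT nuclei Sprr1a was 1.61 higher (SE 0.30, adjusted p = 0.0028) and Ddit3 1.34 higher (SE 0.37, adjusted p = 0.044) on the log2 scale; these calls were lost without the labelled nuclei of cluster 17 (1.05, adjusted p = 0.17) and of cluster 14 (0.83, adjusted p = 0.30), respectively. Atf3 was 1.20 higher (adjusted p = 0.097, and 0.0035 with the library as a block). Against L5 ET nuclei none of the 4 passed the test: Ddit3 differed by 0.09 (SE 0.36), Ecel1 by 0.04 (SE 0.38), Sprr1a by 0.38 (SE 0.29) and Atf3 by 0.93 (SE 0.38, adjusted p = 0.18, and 0.017 with the block). These comparisons share the labelled nuclei.

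**Figure D3:**
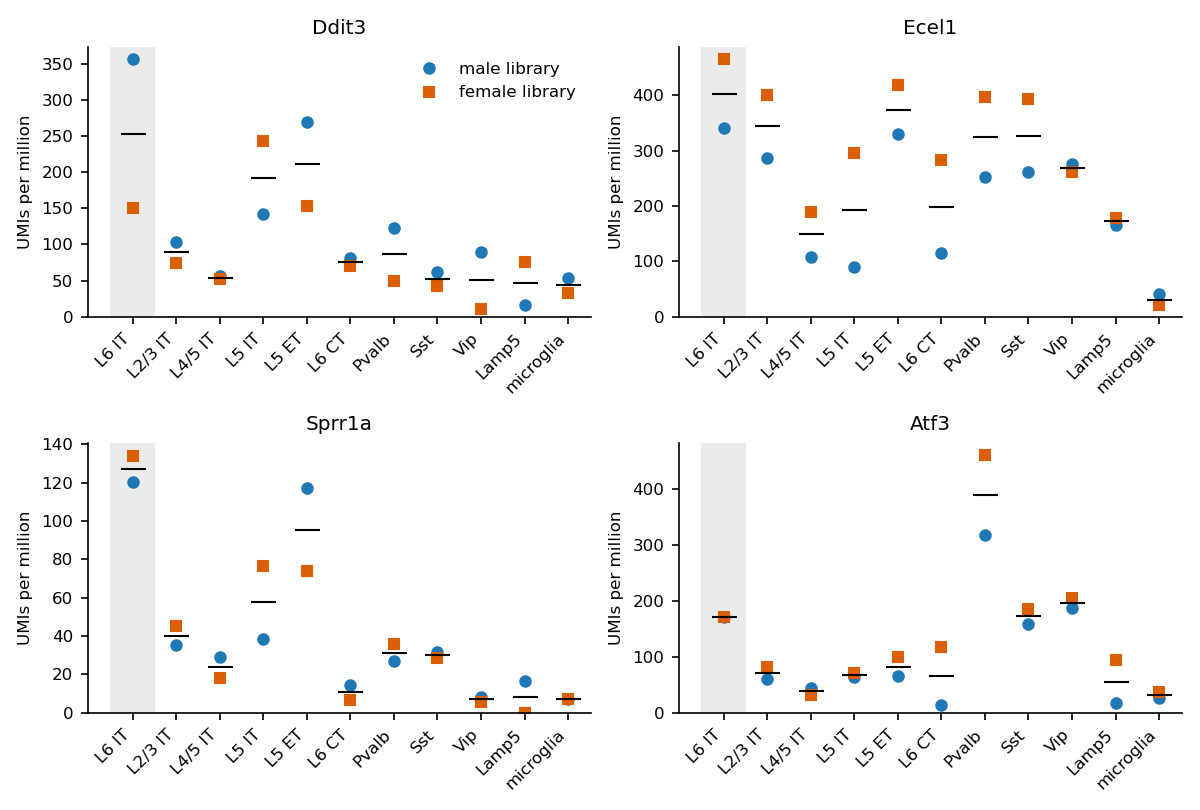
CPM (y axis) of Ddit3, Ecel1, Sprr1a and Atf3 in 10 neuronal subclasses and microglia (x axis); points are the male and female library, the black line is their mean and L6 IT is shaded. Sprr1a is at 120 and 134 CPM in L6 IT, above the other subclasses, while Atf3 is highest in Pvalb nuclei.

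Depth was removed from the comparison of detection by thinning each nucleus to 1000 UMIs, which left out 14 labelled nuclei in each library. Ddit3 was then seen in 23.3% and 16.1% of labelled nuclei, against 13.7% and 7.87% of other neurons, 25.3% and 14.9% of L5 ET nuclei and 4.93% and 3.23% of microglia. Unthinned, it was seen in 37.9% and 32.7% of labelled nuclei and in 35.2% and 39.1% of other neurons, whose depth was greater. Thinned shares for Sprr1a were 8.22% and 9.20% against 5.82% and 4.87% in other neurons and 0.485% and 0.732% in microglia. Ecel1 was seen in 34.2% and 34.5% against 25.1% and 32.1%, and Atf3 in 17.8% and 17.2% against 10.4% and 12.7%. All 4 genes were thus seen more often in labelled nuclei than in other neurons of the same library at equal depth, and the shares were not tested. Of the 188 nuclei, 135 held a UMI of at least 1 of these genes, 82 of at least 2, and 25 held both Ddit3 and Sprr1a.

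The levels of these genes in labelled nuclei differed between clusters. Ddit3 was highest in cluster 14, at 1736 and 328 CPM against 755 and 545 in the other neurons, above them in the male and below them in the female library, followed by cluster 4 (297 and 208 against 241 and 148) and cluster 17 (229 and 196 against 122 and 108). In cluster 20 labelled nuclei held 0 UMIs of Ddit3 in the male library (0 of 6 nuclei, too few to exclude a sizeable share with a UMI), and 1 of the 26 female nuclei held it. Sprr1a was 206 and 160 CPM in cluster 17 against 91.8 and 92.5 in the other neurons. In cluster 4 it was 198 and 675 CPM against 114 and 68.2, but 11 of the 13 female UMIs came from 1 nucleus. Among labelled nuclei Atf3 was highest in the Pvalb-led cluster 8, at 417 and 485 CPM against 321 and 458 in the other neurons, and was at 0 in cluster 20. Ecel1 ranged from 693 and 883 CPM in cluster 4 to 0 and 28.7 in cluster 20, where the other neurons had 413 and 184. Fitted over the 6 clusters with each weighted equally, none of the 4 differed between labelled and other neurons by the test: Ddit3 by 0.56 (SE 0.39, adjusted p = 0.46), Ecel1 by -0.23 (SE 0.33, adjusted p = 0.76), Sprr1a by -0.97 (SE 1.25, adjusted p = 0.72) and Atf3 by -0.49 (SE 1.48, adjusted p = 0.91) on the log2 scale. These are fitted values, and the median gene of the same fit was at -0.36, below Ecel1. The negative signs rested on cluster 20, where labelled nuclei held 0 UMIs of Sprr1a and Atf3 and the other neurons 5 and 1. Without cluster 20 the differences were 0.43 for Ddit3, 0.14 for Ecel1, 0.34 for Sprr1a and 0.46 for Atf3, and none was called.

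**Figure D4:**
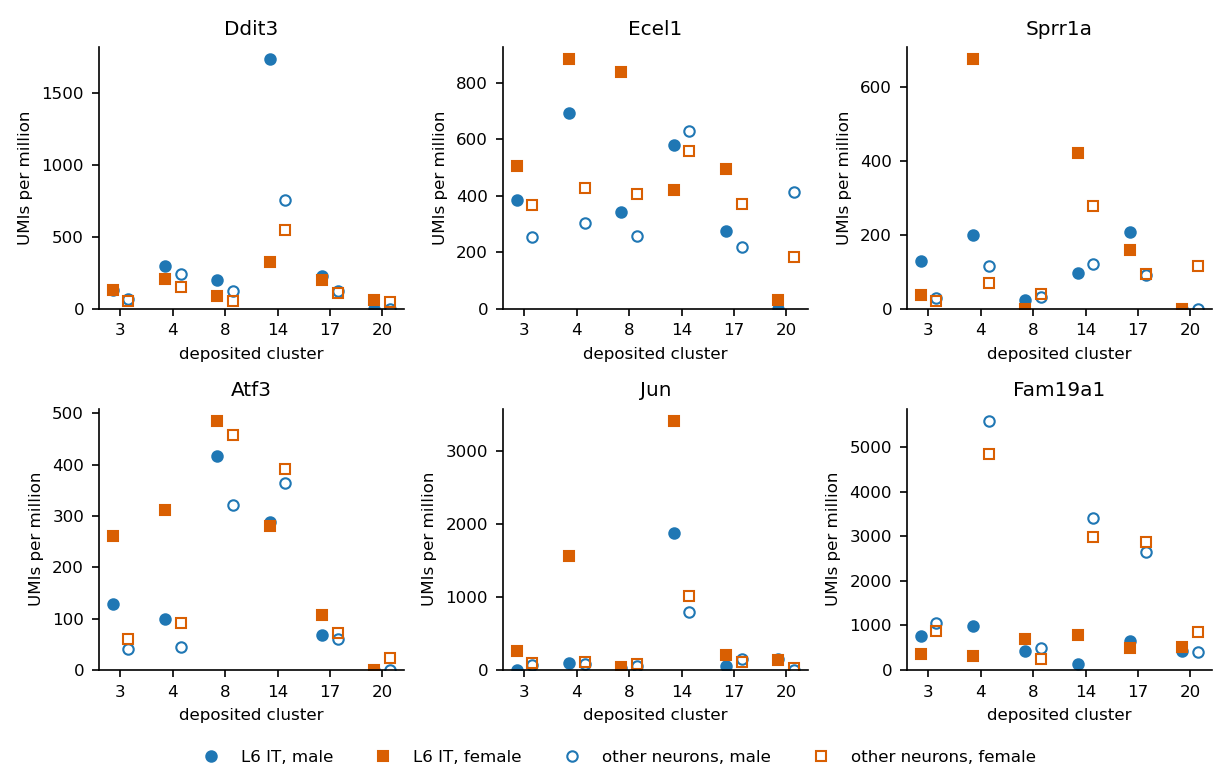
CPM (y axis) of Ddit3, Ecel1, Sprr1a, Atf3, Jun and Fam19a1 in the 6 clusters with at least 18 labelled nuclei (x axis), per library; filled points are nuclei labelled L6 IT and open points the other neurons of the cluster. For Atf3 the filled points are highest in cluster 8, and for Fam19a1 the filled points lie below the open ones in clusters 4, 14 and 17.

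Across all genes, the labelled nuclei differed from the mean of the other excitatory subclasses in 543 of 8255 genes tested (6.58%), with 304 higher (3.68%) and 239 lower (2.9%). With the library as a block 770 of the 8255 were called. Of the 543, 542 moved the same way in both libraries, but the calls were made from these same libraries, so this is no separate evidence. The labels were assigned from the same counts, so a part of these differences is what the assignment used and cannot be told apart from the rest. Stress genes were among the higher ones. Of 17 stress and injury genes shown by the study for these samples, which is no independent evidence of direction, 4 were higher (Sprr1a, Atf3, Jun and Ddit3) and 0 lower, with a list median of 0.65 against 0.05 for all genes on the log2 scale; with the library as a block 9 were called. Of 16 genes of axon injury and regeneration, 4 were higher (Atf3, Jun, Sprr1a and Npy), 8 with the block, and 0 lower.

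Jun, the AP-1 partner of Atf3, was measured at 266 and 426 CPM, against 109 and 132 in the other excitatory subclasses, and was 1.68 higher on the log2 scale (SE 0.26, adjusted p = 0.00024). Cluster 14 gave 73.6% of the male and 41.7% of the female UMIs, and 28 of the female ones lay in 1 nucleus. Without cluster 14 the difference was 0.79 (adjusted p = 0.18). Npy, which encodes neuropeptide Y, had 377 and 46.3 CPM against 74.0 and 40.6, and its difference of 2.13 (adjusted p = 0.0041) was 0.16 without cluster 14 (adjusted p = 0.90).

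Of 14 genes of the integrated stress and unfolded protein responses, 4 were higher and 0 lower, with a median of 0.71. Besides Ddit3 these were Ppp1r15a, which restores translation by directing a phosphatase to eIF2α, Hspa5, the chaperone of the endoplasmic reticulum, and Slc7a11, a cystine transporter. Ppp1r15a had 40.2 and 26.8 CPM against 6.31 and 7.96 and was 3.32 higher on the log2 scale (SE 0.67, adjusted p = 0.0035). In the labelled nuclei of cluster 14 it was at 289 and 93.6 CPM, on 6 and 2 UMIs. Hspa5 was 0.91 higher (SE 0.27, adjusted p = 0.041) and Slc7a11 2.02 higher (SE 0.62, adjusted p = 0.048). With free RNA subtracted, 1 of the 13 genes of the list that could be tested was called.

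Of 12 genes of the p53 and BCL2 families, 3 were higher and 0 lower, with a median of 0.60. Apaf1, the scaffold of the apoptosome, had 171 and 151 CPM against 106 and 86.8 and was 1.07 higher (SE 0.21, adjusted p = 0.0023), and 1.22 higher in cluster 17 alone. Mdm2, the ligase that degrades p53, was 0.81 higher (SE 0.21, adjusted p = 0.017), and Mcl1, which protects against apoptosis, 1.61 higher (SE 0.47, adjusted p = 0.037). Among 10 genes of DLK, JNK and SARM1 signalling, Dusp10, a phosphatase of JNK and p38, was higher by 1.72 (adjusted p = 0.0041) and Mapk10, which encodes JNK3, lower by 0.84 (adjusted p = 0.0056). Of 6 activity-dependent genes only Egr1 was called, at 361 and 334 CPM against 159 and 136 (1.42 higher, SE 0.25, adjusted p = 0.00087).

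Genes of excitability and synapses were among the lower ones. Of 18 voltage-gated channel genes, 7 were lower and 0 higher, with a median of -0.54. Kcnd2, a potassium channel of dendrites, had 678 and 614 CPM against 1525 and 1380 (-1.30, SE 0.24, adjusted p = 0.0016). Kcnh7 and Kcnq5, also potassium channels, were 1.44 and 1.62 lower, Scn2a and Scn1a, sodium channels, 1.19 and 1.53 lower, and the calcium channels Cacna1e and Cacna1a 1.08 and 0.65 lower. Of 16 synaptic genes, 9 were lower and 0 higher, with a median of -0.84. Grin2b, an NMDA receptor subunit, had 331 and 373 CPM against 921 and 839 (-1.56, SE 0.20, adjusted p = 4.0e-05), and the labelled nuclei of cluster 17 alone gave -2.05. Lrrtm4, a postsynaptic adhesion protein, had 432 and 448 CPM against 1240 and 1070 (-1.23, SE 0.26, adjusted p = 0.0044), and Gabrb2, a GABA-A receptor subunit, 161 and 115 against 297 and 284 (-1.24, SE 0.21, adjusted p = 0.00073). Syt1, Grin2a, Gria2 and Gria3 were also among the lower ones. Among nuclei of 1000 to 4000 UMIs, which leave 326 of the 543 called genes testable and 51 called, none of 15 channel and none of 14 synaptic genes was called; Grin2b was at -0.87 (adjusted p = 0.26) and Kcnd2 at -0.52 (adjusted p = 0.57).

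**Figure D5:**
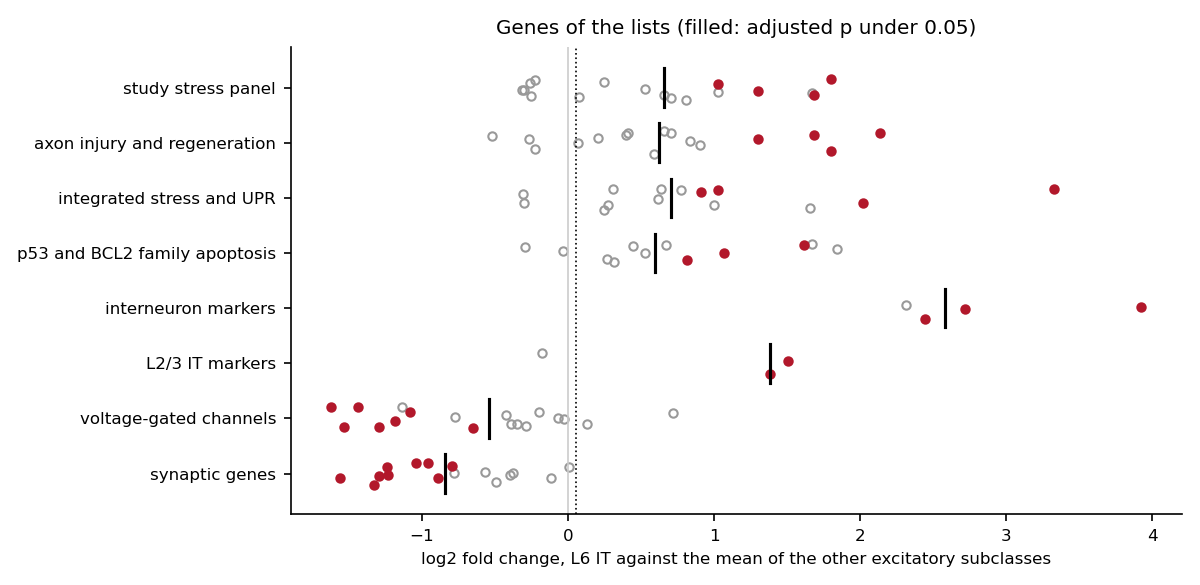
Log2 difference (x axis) of each gene of 8 lists (rows) between nuclei labelled L6 IT and the mean of the other excitatory subclasses; filled red points had an adjusted p under 0.05, black bars are list medians and the dotted line is the median of all genes. The called genes of the 4 stress lists lie to the right and those of the channel and synaptic lists to the left.

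The largest called differences followed the clusters. They are taken from the equally weighted mean, while the CPM beside them are pooled over the other excitatory nuclei. A small subclass without UMIs lowers that mean, so the higher differences can exceed what the pooled CPM give. L5 IT nuclei had no UMI of Ptgds or Gad1 in either library, and L6 CT nuclei had none of Xirp1. Acan, the core protein of perineuronal nets, had 55.2 and 12.2 CPM against 1.87 and 3.57 (4.95 higher, SE 0.91, adjusted p = 0.0022), Cdk15, a kinase, 110 and 14.6 against 14.2 and 12.1 (4.05 higher), and the interneuron genes Gad1, Gad2 and Erbb4 were 3.93, 2.72 and 2.44 higher. Labelled nuclei had 65.3 and 14.6 CPM of Gad1, 30.1 and 24.4 of Gad2 and 231 and 102 of Erbb4. The free-RNA barcodes had 55.9 and 48.9 CPM of Gad1, 55.9 and 69.6 of Gad2 and 217 and 245 of Erbb4. In the labelled nuclei of cluster 17 alone Acan was at -2.52, Gad1 at -3.78, Gad2 at -0.093 and Erbb4 at -0.37. Those nuclei held 0 and 0 UMIs of Gad1, 0 and 1 of Gad2 and 2 and 4 of Erbb4. The value of Gad1 is thus a fit to 0 counts, and its size is not a measured difference. Ptgds, a prostaglandin synthase of leptomeninges and glia, had 40.2 and 34.1 CPM against 7.01 and 1.65 (4.27 higher), and Slc1a3, the astrocyte glutamate transporter, 45.2 and 24.4 against 8.64 and 7.14 (2.15 higher); both led cluster 20. Prc1, a microtubule bundling protein (4.39 higher), Egfr, a growth factor receptor (4.27 higher on 2 and 3 UMIs), and Xirp1, an actin-binding protein (4.22 higher on 7 and 15 UMIs, 12 of them in 1 nucleus of cluster 3), completed the 6 largest. Lower genes included Bcl11b, the transcription factor of L5 ET neurons (10.0 and 4.87 CPM against 36.9 and 37.2, -2.61, adjusted p = 0.0061), Adcy8, an adenylyl cyclase (-3.17), Frmpd3 (-2.55), Pdk1, a kinase of pyruvate dehydrogenase (-2.28), and the noncoding Platr25 (-3.12). Enpp5 had no UMI in labelled nuclei, against 11.2 and 14.7 CPM.

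Cux2, the transcription factor of upper layers, had 120 and 68.2 CPM, and the free-RNA barcodes had 126 and 96.8. In labelled nuclei Cux2 lay between 509 and 461 CPM in L2/3 IT and 9.80 and 5.78 in L5 ET nuclei. It was 2.51 lower than in L2/3 IT (SE 0.29, adjusted p = 2.3e-05) and 3.48 higher than in L5 ET nuclei (SE 0.38, adjusted p = 2.1e-06). The level differed by cluster: 15 of the 24 male and 12 of the 28 female UMIs lay in interneuron-led clusters, at 321 and 211 CPM, and cluster 17 had 0 and 10.3 CPM. The labelled nuclei of cluster 17 alone gave -0.10 against L5 ET nuclei and -2.06 against the mean of the excitatory subclasses. Against the equally weighted mean it was 1.51 higher (0.67 without interneuron-led clusters, adjusted p = 0.43), although the pooled level of the other excitatory nuclei, 251 and 189 CPM, was above it; in that pool L2/3 IT nuclei were 437 of 945 in the male library. Rasgrf2, another upper-layer gene, was likewise 1.38 higher than the mean and 1.22 lower than in L2/3 IT nuclei. Tshz2, a marker of near-projecting neurons, had 55.2 and 73.1 CPM and was 1.77 lower than the mean (adjusted p = 0.029) and 2.11 lower than in L5 ET nuclei (adjusted p = 0.018). Of the 5 L6 IT markers tested, Col27a1, a collagen, was called, at 110 and 124 CPM against 82.2 and 51.6 (1.36 higher, adjusted p = 0.0015). The difference was 0.78 without cluster 3 (adjusted p = 0.13), and in cluster 17 alone it turned to -0.83 (adjusted p = 0.50).

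Against L5 ET nuclei 448 genes were called (5.43%), 231 higher (2.8%) and 217 lower (2.63%), and 777 with the library as a block. Tcerg1l was the lowest of those with UMIs, at 20.1 and 2.44 CPM against 339 and 368 (-5.46, SE 0.47, adjusted p = 3.7e-07), with Tmem163, a zinc transporter, at 65.3 and 51.2 against 649 and 643 (-3.59). Clec3a and Trpc7 had no UMI in labelled nuclei. Slc6a5, the neuronal glycine transporter, was higher, at 85.3 and 124 CPM against 5.51 and 3.76 (4.50, SE 0.43, adjusted p = 8.1e-07), in all 17 alternatives that gave a test, although L2/3 IT nuclei also had 109 and 81.7 CPM. Of the 17 stress genes only Jun was called (1.44 higher, adjusted p = 0.0057), and with the block 2 higher and 1 lower. Of the 18 channel genes 2 were higher (Kcna2 and Kcnc1) and 4 lower (Kcnh7 and Cacna1e among them), and of the 16 synaptic genes 1 was higher (Gria4) and 5 lower (Snap25, Grin2b, Gabrb2, Cdh13 and Lrrtm4). Runx1, 1 of 6 microglia markers tested, was also higher, at 60.2 and 68.2 CPM against 17.1 and 17.9 (1.79, adjusted p = 0.025).

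Against L2/3 IT nuclei 272 genes were called (3.29%), 109 higher (1.32%) and 163 lower (1.97%), and 531 with the block. Sox6, a transcription factor of interneurons from the medial ganglionic eminence, was higher, at 146 and 99.9 CPM against 13.0 and 8.53 (3.41, SE 0.37, adjusted p = 2.2e-05). Of its 29 male and 41 female UMIs, 18 and 16 lay in interneuron-led clusters and 1 and 15 in cluster 20, while cluster 17 had 22.9 and 10.3 CPM and alone gave 0.42 (adjusted p = 0.90). Phldb2, Pkhd1, Fam19a4 and Opn3 were 3.28 to 3.62 higher and Acan 3.17 higher. Cdh22, a cadherin, was 3.01 lower, at 10.0 and 21.9 CPM against 161 and 124, and Igfn1 2.85 lower. Of the 17 stress genes 3 were higher (Sprr1a, Jun and Ddit3), and 1 with DESeq2 and 0 with free RNA subtracted. Of the 18 channel genes 4 were lower (Scn2a, Kcnq5, Kcnd2 and Kcnh7), 7 with the block, and of the 16 synaptic genes 6 (Grin2a, Grin2b, Gria1, Gria3, Gabrb2 and Lrrtm4). Of the 12 genes of the p53 and BCL2 families, 0 were called against either subclass by edgeR's quasi-likelihood test or by DESeq2, with 2 in each at an unadjusted p under 0.05.

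Compared with other neurons of the same cluster, over the 6 clusters, 112 of 3454 genes were called (3.24%), 3 higher (0.0869%) and 109 lower (3.16%), and 198 with the block. This split rests on the scaling, since the median gene was -0.36 on the log2 scale in the main fit; size factors of the RLE kind gave 35 calls with 13 higher, library totals 65 with 8 higher and DESeq2 96 with 46 higher. Changes of the genes named next are therefore given relative to that median, and 25 genes were called under all 4 scalings, 3 higher and 22 lower. Each cluster had the same weight, so the shallow sums of cluster 20 counted as much as those of cluster 17, and without cluster 20 the calls numbered 822. Within clusters too the labels were assigned from the same counts, so a part of these differences is what the assignment used.

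Fam19a1, which encodes the secreted neuronal factor TAFA1 (chr6, 96113154 to 96657198, plus strand), had the lowest adjusted p among the genes named for this comparison. It had 502 and 448 CPM in labelled nuclei against 2233 and 2014 in other neurons, and was 1.36 below the median gene (fitted -1.71, SE 0.25, adjusted p = 2.8e-05). The difference stood in clusters 4 (990 and 312 against 5588 and 4845 CPM), 14 (145 and 796 against 3411 and 2979) and 17 (642 and 484 against 2651 and 2863), and was smaller in cluster 3 (769 and 356 against 1048 and 866). In cluster 8 the female labelled nuclei were above the other neurons (706 against 242 CPM).

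Among the other genes called under all 4 scalings, Gabrb2 was 1.04 and Lrrtm4 0.75 below the median gene. Ppp4r4, a phosphatase subunit, and Rapgef5, an exchange factor of Rap, were 2.30 and 2.24 below it. Arhgap31, which turns off Rac and Cdc42, was 1.55 above, the mitochondrial mt-Atp6 1.34 above and Tnr, an extracellular matrix protein, 1.22 above. For mt-Atp6, the labelled nuclei of cluster 4 include 1 beyond the stated filters (6000 genes, 5% mitochondrial). The fitted value of Arhgap31, 1.20, turned to -0.65 with clusters of at least 10 labelled nuclei, and its call was lost without a filter and without cluster 3, 4, 14 or 20 (0.80 without cluster 20). Osbpl1a (3.11 below), Plekhm3 (2.70 below), Pparg (2.10 below) and Dnajc5 (1.98 below) were called in the main fit and not under every scaling. None of 15 stress genes, 14 axon injury genes, 8 integrated stress response genes and 5 genes of the p53 and BCL2 families was called by edgeR's quasi-likelihood test or by DESeq2, with 2, 4, 0 and 0 at an unadjusted p under 0.05; with the block 1 stress gene was lower. Of 14 channel genes 4 were lower (Kcnq3, Kcnd2, Kcnh7 and Cacna1e) and 0 with RLE size factors, and of 14 synaptic genes 5 were lower (Grin2b, Gria1, Gabrb2, Cdh13 and Lrrtm4) and 2 with RLE size factors.

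Cluster 17, where labelled nuclei had the depth of their neighbours, gave 6 calls of 3454 (0.174%), 2 higher (0.0579%) and 4 lower (0.116%), and 28 with the block. Pcdh11x, a protocadherin, had 275 and 242 CPM against 143 and 24.4 (2.04 higher, SE 0.44, adjusted p = 0.021), and Fgfr2, a receptor of fibroblast growth factors, 229 and 876 against 224 and 168 (1.68 higher, SE 0.36, adjusted p = 0.021), a difference carried by the female library. Tshz2 had 11.5 and 77.3 CPM against 576 and 269 (-2.83, SE 0.50, adjusted p = 0.0025). Plekhh2, Fam19a1 and Zfp804b were also lower. Prune2, which led the labelled nuclei of cluster 17, was at 688 and 696 CPM there and at 89.3 and 92.4 in the labelled nuclei of other clusters, and Gbp7, Ifit3, Tgfbi and Kcnn3 followed it; these leading genes are a description, since the clusters were made from the same counts.

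In cluster 3, 13 genes were called (0.376%), 5 higher (0.145%) and 8 lower (0.232%), and 38 with the block. Chl1, an adhesion molecule of the L1 family, had 256 and 356 CPM against 26.8 and 27.7 (3.57 higher, SE 0.54, adjusted p = 9.5e-05). Ptprm, a receptor phosphatase, had 385 and 393 against 79.2 and 68.2 (2.35 higher, adjusted p = 0.019). Upper-layer genes were lower, Rasgrf2 with 0 and 93.6 CPM against 626 and 549 and Cux2 with 128 and 93.6 against 527 and 517. The other neurons of this cluster were mostly labelled L2/3 IT (533) or L4/5 IT (92). The labels came from the same counts, so these 2 differences cannot be told apart from the assignment. The male sum held only 7799 UMIs, so that 1 UMI was worth 128 CPM.

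Cluster 4 gave 12 calls (0.347%), 8 higher (0.232%) and 4 lower (0.116%), and 41 with the block. The higher genes mt-Nd2, mt-Co1, mt-Co2, mt-Co3 and mt-Atp6 are encoded by mitochondrial DNA. Mitochondrial genes summed to 8617 and 11215 CPM there against 1989 and 921 in the other neurons. Of the 51 mt-Co1 UMIs, 31 lay in 1 nucleus. The only labelled nucleus beyond the stated filters (6000 genes, 5% mitochondrial) was 1 of the 10 female ones of cluster 4, and these fits kept it. Jun was at 99.0 and 1558 CPM, with 30 UMIs in the female and 1 in the male library. Cluster 8 had 1 call (0.029%), Nxph1, a ligand of neurexins, at 245 and 176 CPM against 917 and 806 (-2.14, SE 0.42, adjusted p = 0.021). Cluster 14 had 1 call (0.029%), Fam19a1, and 2 with the block; its labelled nuclei were led by Rpl28, Npy, Tmsb10, Rps29 and Rpl41, and ribosomal protein genes summed to 17071 and 5944 CPM in them. Cluster 20 had 0 calls by edgeR's quasi-likelihood test, with 266 genes at an unadjusted p under 0.05, and its labelled nuclei were led by Slco1a4, of whose 15 UMIs 12 lay in 1 nucleus, Ptgds, Ahnak, Slc1a3 and Mecom.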

How the data were processed

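Single-nucleus RNA was measured in 2 libraries of 1 group. The deposited matrices hold whole-number UMI counts per gene and barcode; per the file headers the authors counted them with Cell Ranger 7.0.1 (male) and 7.0.0 (female), and the submitters' processing notes name Cell Ranger 3.1.0, Seurat, DESeq2 and the build mm10. By the study's methods introns were counted, and subclass labels were projected from a motor cortex reference. Labels and clusters were taken from the deposited annotation. It also holds, as the authors computed them in Seurat, the percent of mitochondrial UMIs per nucleus, used for 1 alternative, and totals corrected by SCTransform. These deposited corrected totals, and a matrix of such values, were treated as scores and entered no result. The female library carries a male sex label, but its title, its annotation and Xist (1123 UMIs in labelled nuclei, 0 in the male library) mark it as female.

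UMI counts were summed per library and subclass (subclasses with at least 20 nuclei) and per library, cluster and label (at least 18 labelled nuclei, 5 per library). Sums were tested in edgeR 4.0.16 (R 4.3.3) by the quasi-likelihood test, with TMM scaling, filterByExpr and Benjamini-Hochberg adjusted p over all genes tested (threshold 0.05); every adjusted p in the text is of this kind unless another tool is named, and all log2 differences come from these fits. With 2 pools per kind of nucleus, the p-values measure the spread between these libraries, which may be technical. CPM are UMIs per 1000000 UMIs of the sum. The same pools of animals gave every sum of a library, and the correlation of library differences between labelled nuclei and 9 other subclasses was 0.0501 to 0.261, so that an alternative fit carried the library as a block. Other alternatives were RLE and total scaling, DESeq2 1.42.0, no filter, nuclei of 1000 to 4000 UMIs, nuclei with under 2 microglia UMIs, subtraction of free RNA, the stated filters (6000 genes, 5% mitochondrial), fewer nuclei per cluster, and leaving out each library or cluster. Doublets were treated as the authors left them. The fits were tested on simulated data.

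Named genes were the 4 injury genes, the 6 highest and 6 lowest called in each comparison, and called members of the lists; Fam19a1, Slc6a5, Prune2 and other genes outside that rule were named after their values were seen. Some called list members are counted but not reported here by name. The members and lists were chosen with earlier results of these data known. Motifs were searched with exact letters in RefSeq promoters.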

Additional observations from a re-analysis of the deposited data

Results flagged for a closer look

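The difference between labelled and other neurons was tested for variation between the 6 clusters in 1 model, a test added after the data were seen. Without a block 0 of 3454 genes passed edgeR's quasi-likelihood test, with 267 at an unadjusted p under 0.05, and with the library as a block 32 passed (0.926%). The 6 named genes among them were each flagged because their effect differed between clusters, and the values below are log2 differences with the adjusted p of the blocked test.

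Fam19a1 (adjusted p = 0.000301) ranged from -3.49 in cluster 4, -2.94 in cluster 14 and -2.32 in cluster 17 to 0.40 in cluster 8. Chl1 (adjusted p = 0.000322) was at 3.57 in cluster 3 and between -1.30 and 0.52 in the other clusters. Ptprm (adjusted p = 0.000322) was at 2.35 in cluster 3 and at -1.36 in cluster 8. The mitochondrial mt-Co1 (adjusted p = 0.000301), mt-Co3 (adjusted p = 0.000301) and mt-Co2 (adjusted p = 0.00105) were at 2.53, 2.69 and 2.48 in cluster 4. There, 1 female nucleus held 31 of the 51 mt-Co1 UMIs. A female labelled nucleus of cluster 4 was beyond the stated filters (6000 genes, 5% mitochondrial) and was kept. Whether it is the same nucleus was not determined.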

How the results depend on the processing

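The number of genes called changed with several choices. Against the other excitatory subclasses 543 genes were called, 770 with the library as a block, 67 among nuclei of 1000 to 4000 UMIs and 60 without nuclei holding 2 or more microglia UMIs. Against L5 ET nuclei 448 were called, 777 with the replicate block (library as a term), 104 in the depth window, 20 without microglia UMIs, 195 with free RNA subtracted, 286 with the labelled nuclei of cluster 17 only and 679 without them. Against L2/3 IT nuclei 272 were called, 531 with the replicate block, 24 in the depth window, 12 without microglia UMIs and 139 with free RNA subtracted. Within clusters 112 were called, 35 with RLE size factors, 65 with library totals, 642 without a filter, 198 with the replicate block, 3 in the depth window, 0 of 61 tested without microglia UMIs, 286 with free RNA subtracted and 400 with clusters of at least 10 labelled nuclei. Leaving out clusters 3, 4, 8, 14, 17 and 20 in turn gave 30, 11, 62, 62, 43 and 822. In single clusters the replicate block moved the calls from 13 to 38 in cluster 3, 12 to 41 in cluster 4, 1 to 2 in cluster 14 and 6 to 28 in cluster 17, and every gene called without it was called with it. Leaving out nuclei with microglia UMIs left 42 male and 7 female labelled nuclei and, within clusters, only clusters 4, 14 and 20, and the depth window left out cluster 17, so these counts differ also in the nuclei compared. The cause of these changes was not tested.

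The share of neurons labelled L6 IT was 7.36% (mean of the libraries), 15.9% in the depth window, and 6.31 to 8.40% with 1 library left out. Thinned to 1500 UMIs, Ddit3 was seen in 26.7% of labelled nuclei (19.7% at 1000), Ecel1 in 44.6% (34.4%), Sprr1a in 12.4% (8.71%) and Atf3 in 22.8% (17.5%); single libraries gave 16.1 to 23.3%, 34.2 to 34.5%, 8.22 to 9.20% and 17.2 to 17.8%. With 1 library left out the gene comparisons have 1 sum per kind of nucleus, so their single-library values carry no test.

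Signs turned as follows (log2 differences). Against the other excitatory subclasses, cluster 17 alone gave Acan -2.52, Egfr -1.50, Npy -0.016, Gad1 -3.78, Gad2 -0.093, Erbb4 -0.37, Cux2 -2.06, Slc1a3 -0.92 and Col27a1 -0.83. Against L5 ET nuclei it gave Ddit3 -0.063, Cacng4 -2.37, Rerg -2.33, Npy -0.25, Cux2 -0.10, Gad1 -4.53, Sulf1 -3.90 and Slc1a3 -1.28. Against L2/3 IT nuclei it gave Acan -4.29, Gad1 -5.37 and Erbb4 -0.39. The labelled nuclei of cluster 17 held 0 UMIs of Gad1 and of Sulf1 in both libraries. The values of these genes are therefore fits to 0 counts, and their sizes are not measured differences.
Against L5 ET nuclei, Ddit3 was also at -0.050 without a filter, -0.21 in the depth window, -0.072 without microglia UMIs, -0.47 without clusters 4 and 14 and -0.43 without cluster 14. Ecel1 was at -0.086, -0.29, -0.47 and -0.065 under the first 4 of these, at -0.038 without interneuron-led clusters, -0.026 without cluster 4 and -0.016 without cluster 8. Sprr1a was at -0.18 without cluster 17, and Npy at -0.10 without clusters 4 and 14 and -0.053 without cluster 14. Against L2/3 IT nuclei Ecel1 was at -0.32 without microglia UMIs and Gad1 at -0.092 without interneuron-led clusters.
Within clusters, Ddit3 was at -0.64 and Arhgap31 at -0.65 with clusters of at least 10 labelled nuclei. Ecel1 was at 0.053 with DESeq2, 0.032 with RLE, 1.51 in the depth window and 0.14 without cluster 20. Sprr1a was at 0.20 with DESeq2 and 0.34 without cluster 20. Atf3 was at 0.61 with DESeq2, 0.35 in the depth window, 0.54 with free RNA subtracted and 0.46 without cluster 20. Rasgrf2 was at 0.32 in the depth window.
Of the other values of named genes, 2043 kept their direction and side of the threshold, 439 kept the direction and lost the call, and 7 gained it. Depth limits the within-cluster comparison, where the male sum of cluster 20 held 6852 UMIs.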

Other observations

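Neat1, the noncoding scaffold of nuclear paraspeckles, had the lowest adjusted p of all genes against the other excitatory subclasses and was noticed after the values were seen. It was at 527 and 326 CPM in male and female labelled nuclei, against 96.0 and 103 in the pooled other excitatory nuclei and 83.2 and 81.8 in all other neurons. Against the equally weighted mean of the other excitatory subclasses it was 2.85 higher on the log2 scale (edgeR's quasi-likelihood test, adjusted p = 1.48e-07). In the labelled nuclei of cluster 20 it was at 3940.5 and 831 CPM, on 27 and 29 UMIs. The small clusters, left out of the within-cluster comparison, held 55 of the 105 male and 57 of the 134 female UMIs. Clusters 6, 8 and 19 together held 4 and 5 UMIs, all of them in cluster 8. The UMIs of the small clusters thus lay in cluster 12 (1 male and 3 female labelled nuclei) and cluster 24 (7 and 4). Labelled nuclei of all small clusters pooled were at 2133 and 878 CPM. In labelled nuclei of the other clusters compared, Neat1 ranged from 0 to 221 CPM in single libraries. Microglia had 425 and 437 CPM and the free-RNA barcodes 354 and 302 CPM.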
